A study of Mus musculus with 20 samples.

Results

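Galectins are lectins, proteins that bind the sugar β-galactoside on glycoproteins and glycolipids. Lgals1, Lgals3, Lgals8 and Lgals9 and the gene of a secreted glycoprotein that galectins bind, Lgals3bp, were followed here, 5 of 14299 genes in the count table. They were chosen by family name and by their measured levels, since Lgals1 and Lgals3 were known to run in opposite directions between the groups below. The levels by group are therefore a description, and the fitted E2 changes of Lgals1 and Lgals3 are not independent evidence of their direction. The cells were primary mouse ovarian surface epithelial (OSE) cells, the layer that covers the ovary, deprived of hormone for 48 hours and then grown for 15 days with 100 nM estradiol (E2) or with ethanol vehicle at 0.0002% (control). No transgene or deletion is named for them. They were captured on a Fluidigm circuit whose columns each gave 1 library of 3′ ends. The authors' clustering at 2 clusters split the 589 cells into cluster 1, described as unresponsive to E2, and responsive cells. Responsive cells numbered 203 in control and 218 in E2, and cluster 1 cells 126 in control and 42 in E2. The 10 control libraries and 9 E2 libraries, named by their column, are the samples. Control cells were loaded through the left inlet of the circuit and E2 cells through the right, and the labels name no separate cultures, so culture, inlet and treatment cannot be told apart, and the spread is that between libraries only.

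Galectins differ in how their sugar-binding domains are arranged. Galectin-1 (Lgals1) is a single domain that pairs with itself, galectin-3 (Lgals3) joins its domain to a long repetitive tail, and galectin-8 and galectin-9 carry a pair of linked domains. They are made in the cytosol, leave the cell without a signal peptide, cross-link receptors and matrix glycoproteins at the surface, and inside the cell some of them mark damaged lysosomes. Galectin-3 is also a classical surface antigen of macrophages.

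The coding sequence of the sugar-binding signature is shown because it is what makes 4 of the 5 members galectins and sets Lgals3bp apart. The stretches are read 5′ to 3′ on the coding strand from GENCODE M21 transcripts of GRCm38, and capitals mark the codons of its conserved ends, the histidine-to-arginine motif at the start and the tryptophan-to-glutamate motif at the close.
Lgals1: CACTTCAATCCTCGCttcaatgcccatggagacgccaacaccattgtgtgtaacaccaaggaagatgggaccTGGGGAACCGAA
Lgals3: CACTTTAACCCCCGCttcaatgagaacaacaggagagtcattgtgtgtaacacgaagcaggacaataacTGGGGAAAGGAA
Lgals8, first domain: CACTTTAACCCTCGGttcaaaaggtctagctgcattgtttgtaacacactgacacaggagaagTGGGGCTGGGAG
Lgals8, second domain: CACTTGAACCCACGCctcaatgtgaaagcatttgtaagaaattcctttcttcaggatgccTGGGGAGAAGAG
Lgals9, first domain: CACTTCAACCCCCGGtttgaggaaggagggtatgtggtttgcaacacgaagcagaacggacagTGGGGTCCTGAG
Lgals9, second domain: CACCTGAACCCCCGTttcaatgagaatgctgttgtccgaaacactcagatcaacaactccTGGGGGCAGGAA

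Each stretch lay within a single coding exon. The Lgals1 stretch was at chr15:78929676-78929759 on the plus strand, in exon 3 of 4, and the Lgals3 stretch at chr14:47384642-47384722 on the plus strand, in exon 5 of 6. Lgals8 carried the signature at chr13:12454813-12454887 in exon 4 and at chr13:12447195-12447266 in exon 9 of 10, on the minus strand. Lgals9 carried it at chr11:78973066-78973140 in exon 3 and at chr11:78965743-78965814 in exon 10 of 11, also on the minus strand. The first stretches of Lgals8 and Lgals9, of equal length, were identical at 42 of 75 bases, and the second stretches at 45 of 72 bases. Lgals3bp (chr11:118392751-118402092, minus strand), the longest product at 577 residues against 135 for Lgals1, held no such signature. Counts of Lgals1, Lgals3 and Lgals9 were exactly whole in every cell with a count, and 97.7% were for Lgals3bp. For Lgals8 the share was 69.6%, and kallisto can divide a read between transcripts of different genes, so the Lgals8 values are less certain.

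Control libraries held 3867790 to 5078339 reads and E2 libraries 2693258 to 4037847, and the same 40 row barcodes served every library by the design of the chip. E2 library 15 stood apart. Over 4850 genes, its responsive cells correlated at r = 0.69 with the mean of the other E2 libraries, where the other 18 libraries reached 0.88 to 0.94 against their own condition, and its cells held a median of 3430.5 genes against 3968 to 5199.5 elsewhere. The E2 changes of the members in responsive cells are given with and without it. All 10 OSE markers were in the table, with a mean summed level of 4792 to 6172 CPM across the 4 groups. Single OSE markers differed between clusters in both directions. Krt19 averaged 414 CPM in control responsive and 25.5 CPM in control cluster 1 cells, and Msln 41.9 and 336 CPM. Of the fibroblast markers, Col1a2 averaged 1874 CPM in control cluster 1 cells against 14.9 CPM in control responsive cells. Col1a1 (77.8 against 197 CPM), Col3a1 (270.2 against 570 CPM) and Thy1 (9.34 against 171 CPM) had the reverse order, and Dcn averaged 1393 and 1265 CPM, so the higher sum in cluster 1 lay mainly in Col1a2. Summed over the list (6 of 8 in the table), fibroblast markers ranged from 1983 to 2450 CPM in control responsive and from 2658 to 4348 CPM in control cluster 1 libraries, and granulosa and theca markers (4 of 10) averaged 72.7 and 308 CPM. Cells of cluster 1 also held fewer reads (medians 112126 in control and 87632 under E2) than responsive cells (143233 and 117809) and a larger mitochondrial share (2.53% and 3.55% against 2.08% and 2.43%). The part of these in the differences between clusters was not tested. Levels are TMM-scaled CPM of the reads summed per library within a cluster. A library entered a cluster with at least 3 cells, so 3 E2 cluster 1 cells were not used and 7 E2 libraries remained there. Levels are not compared between genes.

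Lgals1 was high in responsive cells, higher still in E2 responsive cells, and low in cluster 1 under both conditions. In control responsive cells, the 10 libraries ranged from 12013 to 20607 CPM with a median of 16909. In E2 responsive cells, the 9 libraries ranged from 16826 to 44001 CPM with a median of 35952. In 8 of 9 E2 libraries the level was above every control library, and only E2 library 15, the lowest, lay inside the control range. The means were 16734 ± 2711 CPM (SD, n = 10) and 35178 ± 7930 CPM (SD, n = 9), a ratio of 2.10. Without E2 library 15 the E2 mean was 37472 ± 4213 CPM (SD, n = 8), the ratio was 2.24 and the 2 ranges did not overlap.

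In edgeR's quasi-likelihood test over all genes, Lgals1 rose with E2 in responsive cells by 1.08 ± 0.13 on the log2 scale (SE, adjusted p = 8.09e-06). It was the only member of 4 tested that was called, against 1.37% of 10265 genes tested. A call needed an adjusted p under 0.05 together with a log2 change larger than 0.5 in size. Without E2 library 15 the change was 1.18 ± 0.08 (SE, adjusted p = 3.28e-10). Lgals1 took 1.59% ± 0.253 (SD, n = 10) of all reads in control responsive cells and 3.31% ± 0.765 (SD, n = 9) in E2 responsive cells.

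In cluster 1, Lgals1 ranged from 731 to 4418 CPM with a median of 1656 over the 10 control libraries. Over the 7 E2 libraries it ranged from 744 to 4178 CPM with a median of 1279. The 2 ranges nearly coincided, with means of 2090 ± 1278 CPM (SD, n = 10) and 2001 ± 1504 CPM (SD, n = 7). The fitted E2 change was -0.02 ± 0.39 on the log2 scale (SE, adjusted p = 0.997). No member of 5 was called in cluster 1 by edgeR, where 0.0839% of 8340 genes were called, and none had an unadjusted p below 0.05. DESeq2 and limma-voom also called none.

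Whether the E2 change of Lgals1 differed between the clusters was tested as an interaction over 11398 genes, of which 0.184% were called. The change in cluster 1 minus that in responsive cells was -1.14 ± 0.42 on the log2 scale (SE, unadjusted p = 0.00932), and this did not pass after adjustment (edgeR adjusted p = 0.263, and 0.205 to 0.635 over its alternatives). With cluster labels made without imputation the difference was -0.53 ± 0.34 (SE, edgeR adjusted p = 0.635). None of the 4 members that were also tested in responsive cells was called for the interaction by edgeR, DESeq2 or limma-voom, and Lgals1 was the only one of them with an unadjusted p below 0.05 in edgeR. Lgals3 entered that fit only through its cluster 1 reads, and its value is not read. A difference between clusters in the response of Lgals1 is thus not shown by these libraries.

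**Figure D1:**
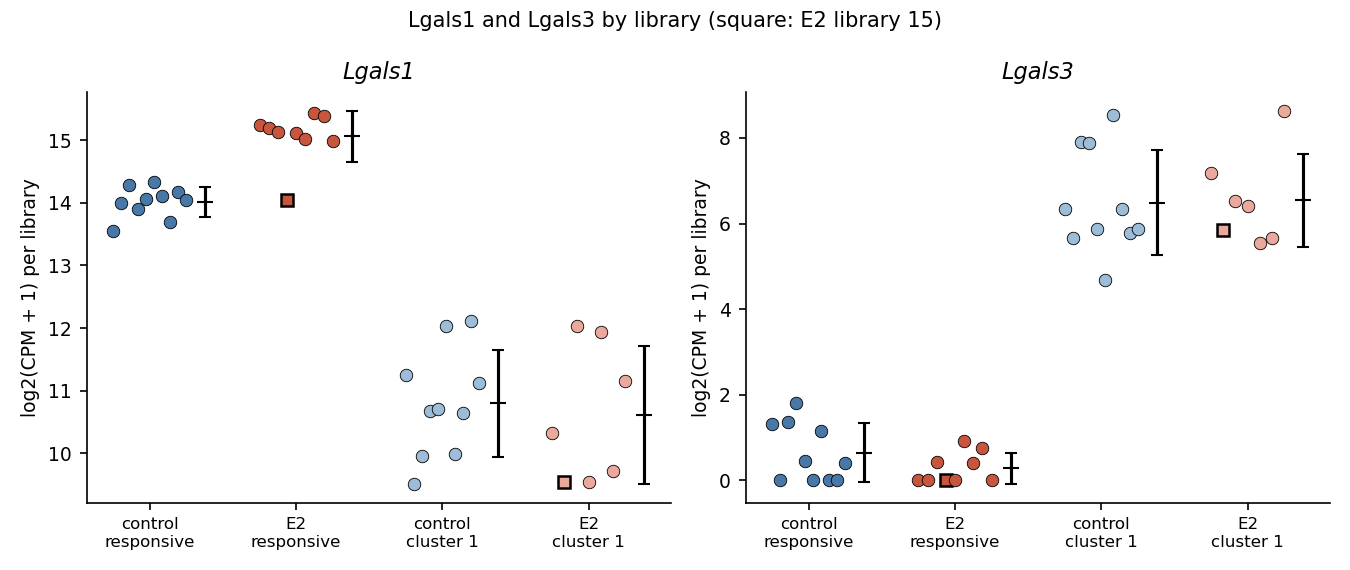
Level of Lgals1 (left) and Lgals3 (right) as log2(CPM + 1), with 1 point per library in each of 4 groups, and bars for the mean and SD. The square is E2 library 15, the only E2 library whose responsive Lgals1 level (16826 CPM) lay within the control range, and for both genes the responsive and cluster 1 points do not overlap.

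Between clusters, Lgals1 was lower in cluster 1 than in the responsive cells of the same library in 17 of 17 libraries. The mean in control responsive cells was 8.01 times that in control cluster 1 cells, and under E2 it was 17.6 times. Because the clusters were made from the same cells, this carries no test. The fit with condition as a covariate called 15.9% of 10597 genes between the clusters. Lgals1 in cluster 1 stood at 12.5% of its responsive level in control and at 5.69% under E2. For comparison, 20 other genes of at least 100 CPM in responsive control cells, chosen after seeing the data for the lowest such ratio in control, stood at a median of 5.95% (range 3.97 to 7.99%) in control and 2.22% (range 0.352 to 86.1%) under E2. How much of the Lgals1 signal in cluster 1 came from RNA of other cells was not tested.

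Single cells showed the same order. Each cell was thinned to 20000 reads, a depth that every cell reached, and Lgals1 was then seen in all 589 cells. The median was 239 reads in control responsive cells (10th to 90th percentile 83.2 to 631) and 653 reads in E2 responsive cells (228 to 1092). Of 218 E2 responsive cells, 194 were above the control median and 113 above the control 90th percentile. Cluster 1 cells had medians of 28.5 reads in control and 28.0 under E2, with 90th percentiles of 62.0 and 146. In control, 3 of 126 cluster 1 cells reached the responsive median, and under E2 it was 0 of 42, which allows a share of up to 7.14%. Cells are not replicates, so these are distributions within the pooled libraries and carry no test.

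**Figure D2:**
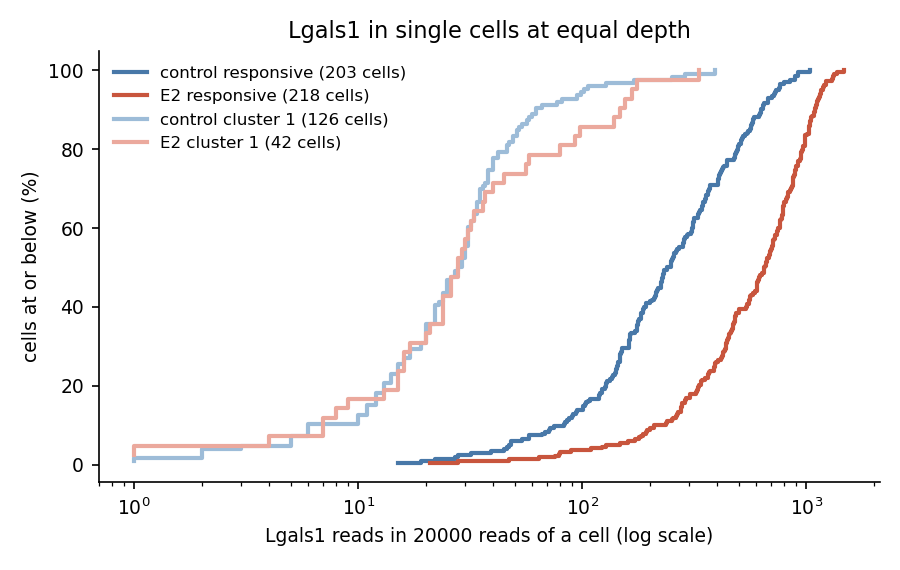
Cumulative share of cells (y axis, percent) by Lgals1 reads in 20000 reads of the cell (x axis, log scale), with 1 line for each of 4 groups. The 2 cluster 1 lines lie to the left and run together up to their medians (28.5 reads in control, 28.0 under E2), above which the E2 line extends further right (90th percentile 146 against 62.0), and the E2 responsive line (median 653) lies to the right of the control responsive line (median 239).

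Lgals1 also varied along the states that the authors' trajectory gave. At equal depth, its median was 215 reads in the 143 control cells of state 2 and 748 reads in the 151 E2 cells of state 5. State 4 held cells of both conditions, with medians of 483 reads in 21 control cells and 454 reads in 43 E2 cells. State 6, with 21 E2 cells, had a median of 482 reads. The Spearman correlation of Lgals1 with pseudotime was 0.37 over the 218 E2 responsive cells, and in control responsive cells it was -0.13 over 203 cells. States, pseudotime and Lgals1 come from the same counts, so these are descriptions.

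Lgals3 had the opposite pattern, present in cluster 1 and nearly silent in responsive cells. In control cluster 1 cells, the 10 libraries ranged from 24.7 to 372 CPM with a median of 68.6. In E2 cluster 1 cells, the 7 libraries ranged from 45.8 to 397 CPM with a median of 83.5. No library was without reads, and the 2 ranges overlapped almost wholly, with means of 125 ± 115 CPM (SD, n = 10) and 124 ± 125 CPM (SD, n = 7). In responsive cells no library exceeded 2.47 CPM in control or 0.906 CPM under E2, and 4 of 10 control and 5 of 9 E2 libraries held no read at all. A count of 0 allows up to 3 reads, which was 0.843 to 1.15 CPM in control and 0.768 to 1.40 CPM under E2.

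All 203 control responsive cells together held 20 Lgals3 reads, against 2074 in the 126 control cluster 1 cells. Relative to all reads of the group, cluster 1 held 209.7 times the responsive level in control and 514 times under E2. These ratios are a description without an interval, since Lgals3 was chosen for this direction and the reads carry no molecular identifiers. Lgals3 was higher in cluster 1 in 17 of 17 libraries. Because it was filtered out in responsive cells, its E2 change there was not tested. The ratio of E2 to control in the pooled responsive reads, 6 against 20, was 0.341, and a single control cell held 7 of the 20 reads. Pooled reads are not replicates, so this ratio carries no test. By library, the share of responsive cells with an Lgals3 read did not pass (exact permutation p = 0.526 at equal depth and 0.119 unthinned). At equal depth only 0.985% of control and 0.459% of E2 responsive cells held a read. That is too few for the test at equal depth to show a difference, so nothing is concluded from it.

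Within cluster 1, Lgals3 was seen in only some of the cells. A read was present in 46.8% of control cluster 1 cells (95% Clopper-Pearson interval 37.9 to 55.9%) and in 47.6% of E2 cluster 1 cells (32.0 to 63.6%). These intervals pool the cells of all libraries and leave out the spread between libraries. By library, the unthinned shares had an SD of 13.9 percentage points in control (n = 10) and 20.8 under E2 (n = 7). At 20000 reads per cell, a read was found in 34.6% ± 11.1 (SD, n = 10) of control and 46.8% ± 25.03 (SD, n = 7) of E2 cells as means over libraries, and the difference was within the spread (exact two-sided permutation p = 0.193, adjusted over 10 tests 0.633). In responsive cells the unthinned share was 6.40% in control and 2.29% under E2. The fitted E2 change in cluster 1 was 0.07 ± 0.54 on the log2 scale (SE, adjusted p = 0.991), and it was -0.61 without E2 library 20, where the level was highest.

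Lgals1 was also read in cluster 1 cells with and without Lgals3. In control, the Lgals1 median at equal depth was 24.0 reads in the 59 cells with an Lgals3 read and 31.0 in the 67 cells without. Under E2 the order was the other way, with 31.5 in 20 cells and 25 in 22 cells. The few responsive cells with an Lgals3 read, 13 in control and 5 under E2, mostly held a single read (11 and 4 cells). A read of Col1a2, a collagen gene of cluster 1, was present in 69.2% of those 13 cells and in 54.2% of the other control responsive cells.

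Since macrophages also make galectin-3, leukocyte markers were read beside it. Of 14 markers, 5 were in the table (Ptprc, Cd68, Csf1r, Itgam and Cd14). Their summed level per library was 18.2 to 95.5 CPM in control cluster 1 cells and 0 to 119 CPM in E2 cluster 1 cells. In control responsive cells, where Lgals3 was nearly silent, it was 63.8 to 167 CPM, a range that overlaps both. Ptprc, the pan-leukocyte antigen, averaged 0.942 CPM in control cluster 1 and 1.48 CPM in control responsive cells, and Csf1r, a receptor of macrophages, 15.5 and 12.9 CPM. Their part in the Lgals3 level was not tested.

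Lgals3bp, which encodes a large secreted glycoprotein that binds galectins and matrix proteins, was present in all groups and was higher in responsive cells in 16 of 17 libraries. In responsive cells it ranged from 107 to 275 CPM (median 174) in control and from 60.2 to 178 CPM (median 165) under E2. The lowest E2 value was again library 15, and the ranges overlapped. The means were 187 ± 51.0 CPM (SD, n = 10) and 148 ± 38.3 CPM (SD, n = 9). The fitted E2 change of -0.33 ± 0.19 on the log2 scale (SE) did not pass (edgeR adjusted p = 0.637), and without library 15 it was -0.22 ± 0.16 (SE). In cluster 1 the means were 99.7 ± 47.4 CPM (SD, n = 10) in control and 70.5 ± 82.0 CPM (SD, n = 7) under E2. There library 15 was at 0 and library 16 was the highest at 231 CPM. The fitted change in cluster 1 was -0.44 (edgeR adjusted p = 0.953), -0.24 without library 15 and -1.10 without library 16, and limma-voom gave -1.45, none of them called. At equal depth, a read was found in 61.9% ± 9.17 (SD, n = 10) of control and 51.3% ± 16.9 (SD, n = 9) of E2 responsive cells (exact permutation p = 0.0998, adjusted p = 0.633).

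Lgals8, whose product binds the glycans exposed on damaged endosomes and lysosomes, differed little in mean level between the clusters. In responsive cells it ranged from 5.89 to 77.8 CPM (median 46.8) in control and from 20.2 to 163 CPM (median 49.2) under E2. The highest value, 163 CPM, was E2 library 15, and the next was 80.3 CPM. The fitted E2 change was 0.37 ± 0.35 on the log2 scale (SE, edgeR adjusted p = 0.854), and 0.04 ± 0.33 (SE) without that library. Cluster 1 was higher in 9 and lower in 8 of 17 libraries. The means in cluster 1 were 50.4 ± 31.0 CPM (SD, n = 10) in control and 56.8 ± 37.2 CPM (SD, n = 7) under E2 (47.5 ± 30.4 CPM, n = 6, without library 15). The responsive means were near these, at 46.1 ± 18.2 CPM (SD, n = 10) in control and 59.8 ± 42.2 CPM (SD, n = 9) under E2. Without library 15 the E2 responsive mean was 46.9 ± 18.2 CPM (SD, n = 8).

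Lgals9, another galectin with linked domains and a ligand of immune cell receptors, was lower in cluster 1 in 14 of 17 libraries. In responsive cells it ranged from 48.7 to 140 CPM (median 78.2) in control and from 19.5 to 105 CPM (median 58.9) under E2, with 7 of 9 E2 libraries at or below the control median. The ranges overlapped, and the fitted change of -0.44 ± 0.29 on the log2 scale (SE) did not pass (edgeR adjusted p = 0.713), and without library 15 it was -0.33 ± 0.28 (SE). In cluster 1 the means were 48.3 ± 35.5 CPM (SD, n = 10) and 34.4 ± 26.5 CPM (SD, n = 7), with a fitted change of -0.43 ± 0.63 (SE, edgeR adjusted p = 0.952) that was -0.71 without library 15. At equal depth, none of the 10 tests of the share of cells with a read (5 members in 2 clusters) passed. None of the 10 had an unadjusted p below 0.05 in the exact permutation of libraries. The Lgals1 tests could not pass, since every cell held an Lgals1 read at that depth. The Lgals3 test in responsive cells rested on too few cells with a read to pass. These tests say nothing about a change, but they were counted in the adjustment. For Lgals3bp in responsive cells, the exact permutation p was 0.0116 unthinned (adjusted p = 0.116) and 0.0371 at 2 reads (adjusted p = 0.371).

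**Figure D3:**
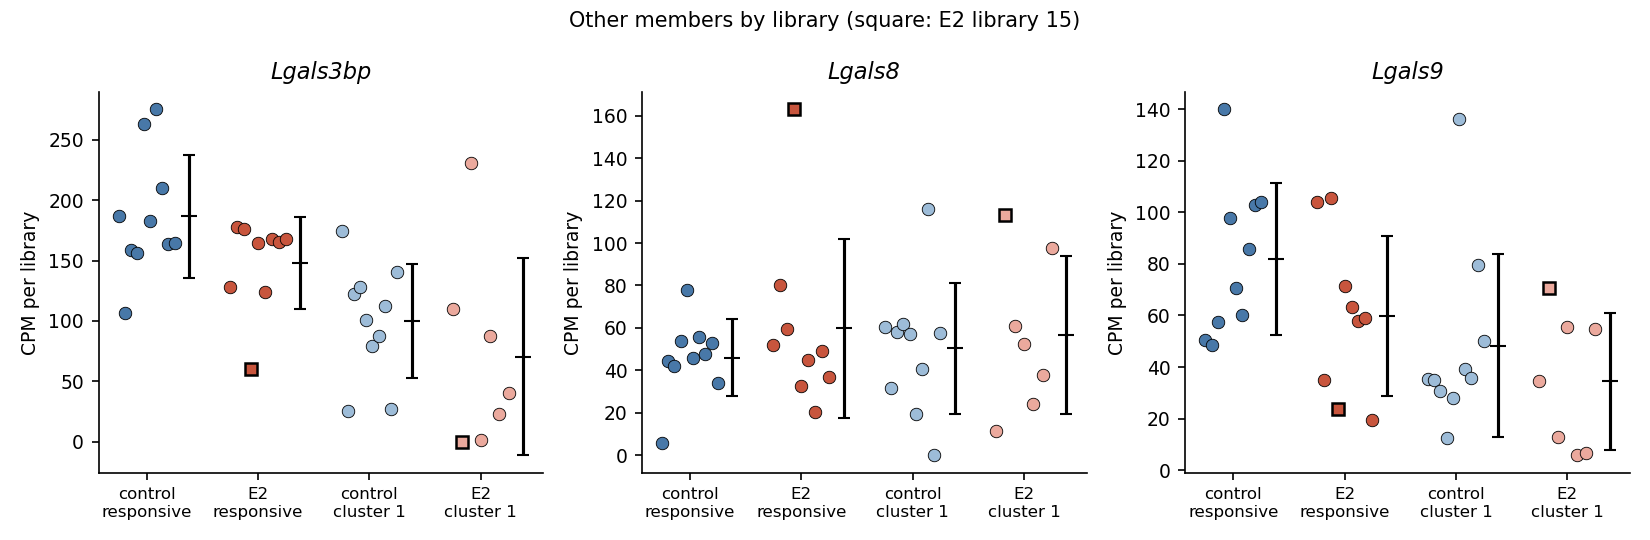
Level of Lgals3bp, Lgals8 and Lgals9 in CPM, with 1 point per library in each of 4 groups, and bars for the mean and SD. The E2 and control points overlap in every panel, and the square, E2 library 15, is the lowest E2 responsive point for Lgals3bp (60.2 CPM) and the highest for Lgals8 (163 CPM).

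The order of the 4 groups separated beyond the ranges at a single step for Lgals1 and Lgals3 and at none for the others. For Lgals1 it ran from E2 responsive to control responsive, control cluster 1 and E2 cluster 1 cells, and the step between control responsive and control cluster 1 cells was the only one between neighbours whose ranges did not overlap. The step between E2 and control responsive cells, 18443 CPM, also exceeded the sum of their SDs, 10642 CPM. For Lgals3 the separating step lay between E2 cluster 1 and control responsive cells, and at 123 CPM it was just under the sum of their SDs, 126 CPM. The 3 neighbouring steps of Lgals3bp, Lgals8 and Lgals9 were each smaller than the sum of the 2 SDs. The separating steps of Lgals1 and Lgals3 lay between the clusters, the contrast by which these genes were chosen. They are therefore a description, and the share of all genes with such a step was not counted.

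**Figure D4:**
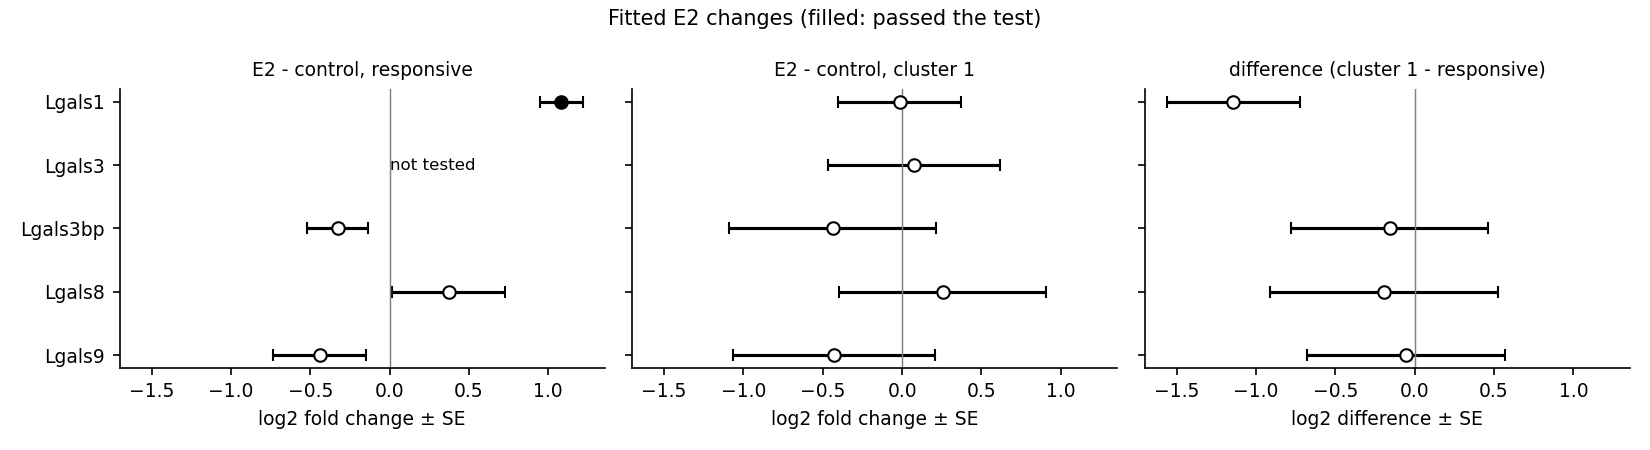
Fitted log2 fold change of E2 over control with its SE for the members in responsive cells (left) and in cluster 1 (middle), and the difference between these changes (right). Only Lgals1 in responsive cells (1.08 ± 0.13) is filled, which marks a call. Lgals3 was not tested there, and it is left out of the right panel because it passed the filter only through cluster 1.

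Of 7 other galectin family genes looked up, Lgals2, Lgals7 and the galectin-like gene Lgalsl were in the table. Lgals2, which encodes another single-domain galectin, averaged 85.3 ± 20.8 CPM (SD, n = 10) in control and 86.3 ± 25.6 CPM (SD, n = 9) in E2 responsive cells, and 25.7 ± 13.04 CPM (SD, n = 10) in control cluster 1 cells. Its E2 change in responsive cells, 0.03 ± 0.20 on the log2 scale (SE, edgeR adjusted p = 0.987), was not called, unlike that of Lgals1, and the difference between these 2 genes was not tested. Only 37.9% of its counts were whole. Lgalsl averaged 31.2 ± 15.1 CPM (SD, n = 10) in control and 23.2 ± 12.04 CPM (SD, n = 9) in E2 responsive cells. Lgals7 had a count in 5 cells.

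The sugars that galectins bind are built by glycosyltransferases of the Golgi. From 3 lists of glycan genes, not all of them glycosyltransferases, 31 were tested for E2 in responsive cells. Of these, 2 were called higher and 0 lower, against 0.848% of all genes tested that were called higher and 0.526% that were called lower. Fut8, which adds the core fucose to N-glycans, ranged from 12.5 to 47.5 CPM (median 26.5) in control and from 35.1 to 186 CPM (median 61.5) under E2, ranges that overlapped. Fut8 rose by 1.34 ± 0.33 on the log2 scale (SE, edgeR adjusted p = 0.0345), and without E2 library 15 the change was 1.07 and was not called (adjusted p = 0.0853). Fut8 was called in 9 of the 19 fits that left out a library and in 4 of 6 alternatives, not by limma-voom or in thinned cells. St3gal6, which caps galactose with sialic acid, ranged from 26.1 to 67.7 CPM (median 38.2) in control and from 55.9 to 115 CPM (median 88.7) under E2. St3gal6 rose by 1.09 ± 0.23 on the log2 scale (SE, edgeR adjusted p = 0.00723). St3gal6 was called in each of the 19 fits that left out a library and in all 6 alternatives. For both genes, the alternative of at least 5 cells per sum was the same fit as the main one.

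St3gal4, a related sialyltransferase, had a fitted change of 1.10 ± 0.33 (SE) that did not pass (edgeR adjusted p = 0.116). DESeq2 called St3gal4 and limma-voom did not. In the list for galactose and lactosamine extension, B4galt5 had the largest positive value, 0.91 ± 0.28 (SE, edgeR adjusted p = 0.134). B4galt2 had -1.31 ± 0.89 (SE, edgeR adjusted p = 0.721), and none of the 11 genes was called. edgeR gave 1 of these 11 an unadjusted p below 0.05, beside 1015 of all 10265 genes tested. Among the 11, limma-voom called 0 and DESeq2 called B4galt5. The median log2 fold change was 0.22 for N-glycan processing and branching, 0.03 for galactose and lactosamine extension and -0.08 for sialic acid capping, beside 0.02 for all genes. In cluster 1, edgeR called none of 27 genes of these lists for E2, beside 0.0839% of all 8340 genes tested. It gave 1 of the 27 an unadjusted p below 0.05, beside 622 of the 8340. There limma-voom called none of the 27 and DESeq2 called Neu3.

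**Figure D5:**
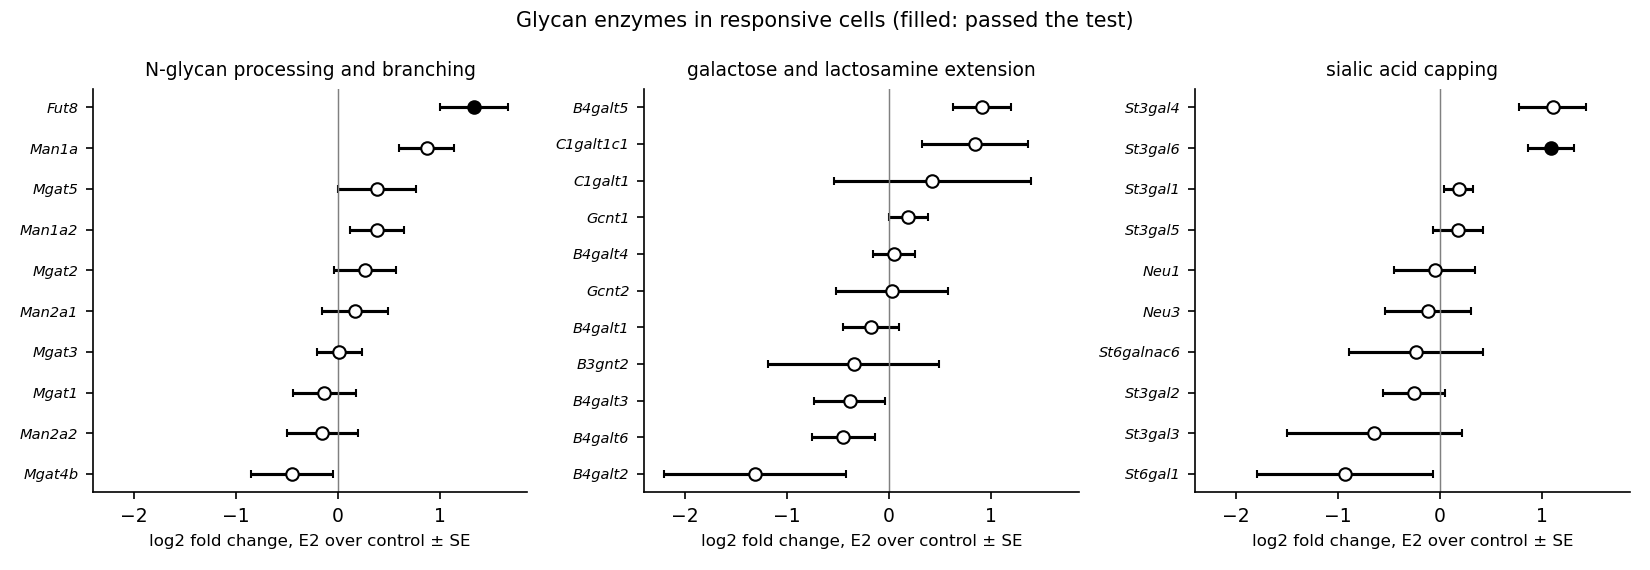
Fitted log2 fold change of E2 over control in responsive cells with its SE for 31 genes in 3 glycan lists. Only Fut8 (1.34 ± 0.33) and St3gal6 (1.09 ± 0.23) are filled, which marks a call.

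Between clusters, where no test applies, enzymes of a list differed in direction. St3gal1, which caps O-glycans, averaged 226 CPM in control responsive and 103 CPM in control cluster 1 cells. St3gal5, which makes the ganglioside GM3, had the reverse order, with 103 CPM in control responsive and 257 CPM in control cluster 1 cells. B4galt4 was lower in control cluster 1 cells (72.2 against 157 CPM), and B4galt6 was higher (76.5 against 45.8 CPM). Man1a, a mannosidase that trims N-glycans, averaged 78.9 CPM in control responsive and 50.6 CPM in control cluster 1 cells.

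Of 28 glycoproteins listed as partners of galectins, 22 were tested for E2 in responsive cells, and 0 rose and 1 fell, against 0.848% of all genes tested that were called higher and 0.526% that were called lower. This was Cd63, a tetraspanin of late endosomes, which ranged from 1037 to 1636 CPM (median 1230) in control and from 608 to 1232 CPM (median 735) under E2. Cd63 fell by 0.69 on the log2 scale (SE 0.12, edgeR adjusted p = 0.00147), and it was called in all 19 fits that left out a library. Cd9, another tetraspanin, had a fitted change of 1.15 ± 0.34 (SE) that was not called (edgeR adjusted p = 0.11). DESeq2 called Cd9 and limma-voom did not. Its E2 responsive libraries ranged from 51.3 to 461 CPM with a median of 72.7. Between clusters, Fn1 (fibronectin) averaged 1115 CPM in control responsive and 108 CPM in control cluster 1 cells, and Alcam, an adhesion molecule, 241 and 23.9 CPM. Kdr, a VEGF receptor, averaged 44.4 CPM in control responsive cells and 0.693 CPM in control cluster 1 cells. These 3 partners were named for their large cluster differences. Of the 21 partners in the fit between clusters, 9 were called lower in cluster 1, 2 higher and 10 in neither direction. Over all genes, 15.9% of 10597 were called, and these counts carry no test.

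Of 16 genes that act with galectins at damaged lysosomes, 14 were tested and none was called for E2 in responsive cells by edgeR, DESeq2 or limma-voom. Over all genes, edgeR called 1.37% of 10265. It gave 3 of the 14 genes an unadjusted p below 0.05, beside 1015 of the 10265. The median log2 fold change of the 14 genes was 0.08, beside 0.02 for all genes. Sqstm1, an autophagy receptor, averaged 407 CPM in control responsive and 193 CPM in control cluster 1 cells, and 309.8 and 304 CPM under E2. Chmp4b, a subunit of the ESCRT membrane repair machinery, averaged 95.8 CPM in control responsive and 133 CPM in control cluster 1 cells.

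The genes whose levels over the 36 library and cluster sums were most like Lgals1, among 6902 genes of at least 20 CPM on average, were Ctsh (Pearson r = 0.94), Pcp4l1 (0.94) and Crip1 (0.92), and the most opposed were C1s1 (-0.97), C1s2 (-0.95) and Col1a2 (-0.93). For Lgals3 the highest were Col1a2 (0.96), Mmp2 (0.95) and C1s1 (0.94), and the lowest Htatip2, Fxyd1 and Igfbp4 (-0.94, -0.94 and -0.93). Lgals1 and Lgals3 correlated at -0.92. These values follow the cluster split that the sums share and carry no p. After the mean of each condition and cluster was taken from every sum, the correlation of Lgals1 with Lgals3 was -0.19, and the highest for Lgals1 were Cox7b, Tagap and Gm9790 (0.75, 0.72 and 0.71). For Lgals3 they were Narf, Usp46 and Oasl2 (0.61, 0.58 and 0.57). At the other end for Lgals1, C1s1 was still the most opposed, followed by Edc4 and Ccnyl1 (-0.71, -0.70 and -0.67).

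Lgals3bp was closest in level to Sacm1l (0.87), Riok1 (0.86) and Tsc22d1 (0.85), with U2surp, Pcmtd2 and Myo5b at the other end (-0.72, -0.72 and -0.71). The highest for Lgals8 were Hps4, Fam50a and Mis12 (0.68, 0.61 and 0.61), and Polr2h (0.75) and Hspb1 (0.68) were high for Lgals9. The lowest were Gprasp1 (-0.49) for Lgals8 and Ogn (-0.67) for Lgals9. Within groups, Lgals3bp correlated at 0.53 with Lgals1, and Lgals8 correlated with Lgals1 at -0.34. Among these sums, library 15 is low for Lgals1 and Lgals3bp and high for Lgals8. Control cluster 1 library 9 held no Lgals8 read and the highest Lgals1 level of its group, 4418 CPM. The part of single libraries in these correlations was not tested.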

How the data were processed

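For each cell and gene, estimated counts from kallisto 0.44.0 and tximport were deposited by the authors after filtering. The submitters' processing notes name GRCm38. The authors also deposited metadata with SC3 cluster labels, the percent of mitochondrial reads, and the pseudotime score and state from monocle. Their imputed values were not used, but the SC3 labels were made from them. The labels were checked against k-means with 2 groups on 10 principal components without imputation and without the 5 members, which gave 582 of 589 cells the same label. Cells of column 13 were not analysed here.

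Counts were summed per library and cluster (at least 3 cells) and rounded. edgeR 4.0.16 (TMM, filterByExpr, quasi-likelihood test, Benjamini-Hochberg adjustment) was fitted on all genes, with DESeq2 1.42.0 and limma 3.58.1 (voom) as alternatives. The SE is the log2 fold change over the square root of F. Scripts were tested on simulated data. Intervals and limits cover counting error only. The members and gene lists were chosen with earlier results of these data known. Beside the members, genes are named by E2 calls, by the 4 largest cluster differences of each list among genes of at least 20 CPM (a selection of these is given), or by likeness. Markers, Neu3 and B4galt2 were named outside this rule, these enzymes after their values were seen.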

Additional observations from a re-analysis of the deposited data

Results flagged for a closer look

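Libraries far from the others of their group were looked for among the 5 members in 4 groups, 20 sets of values in all, by comparing the gap to the nearest library with the range of the group. Chance flags about 1 in 20 such sets, and 4 were flagged. Of these, 3 belong to the responsive cells of E2 library 15, whose 24 cells gave the lowest Lgals1 level (16826 CPM, next 32418 CPM), the lowest Lgals3bp level (60.2 CPM, next 124 CPM) and the highest Lgals8 level (163 CPM, next 80.3 CPM) of the 9 E2 libraries. Lgals1 at equal depth had a median of 289 reads per cell in that library, against 630 to 907.5 in the other E2 libraries. The fourth was Lgals3 in the cluster 1 cells of E2 library 20 (397 CPM from 5 cells, next 143 CPM).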

How the results depend on the processing

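Lgals1 was called for E2 in responsive cells under all 6 alternatives and in all 19 fits that left out a library (1.04 to 1.18 on the log2 scale), and the number of members called stayed at 1 there, 0 in cluster 1 and 0 for the interaction. Of these 6, at least 5 cells per sum gave the same fit as the main one in responsive cells. Every responsive sum held at least 15 cells, so that alternative could not differ there. The cause of the changes below was not tested. The E2 change in cluster 1 reversed in sign, never called, for Lgals1 with DESeq2 (0.076), limma-voom (0.0019), thinned cells (0.066), at least 5 cells per sum (0.11) and labels without imputation (0.62), for Lgals3 with limma-voom (-0.027), no filter (-0.022) and thinned cells (-0.018), and for Lgals8 with at least 5 cells (-0.030). Leaving out a library gave -0.30 to 0.19 for Lgals1, -0.61 to 0.44 for Lgals3, -0.030 to 0.49 for Lgals8 and -1.10 to -0.22 for Lgals3bp. The interaction reversed for Lgals8 with DESeq2 (0.076), thinned cells (0.14) and the library as a replicate block (0.046), for Lgals9 with DESeq2 (0.16) and labels without imputation (0.24) and for Lgals3bp with at least 5 cells (0.073) and labels without imputation (0.063). The E2 difference in the share of cluster 1 cells with a read reversed for Lgals8 unthinned (-1.55 percentage points) and for Lgals9 at 2 reads (-7.14). Over all genes, calls in responsive cells were 141, with DESeq2 234. In cluster 1 they were 7, with DESeq2 52 and with no filter 1. For the interaction they were 21, with DESeq2 98, limma-voom 13, thinned cells 12 and the library block 0, and between clusters 1689, with limma-voom 2624.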
